A study of Rattus norvegicus with 6 samples.

Results

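Expression of basement membrane and integrin genes was compared between a rat bile duct cancer cell strain and a fibroblastic strain from the same tumour model. The rule for the genes used their names and no measured value, but it was written with earlier results of these data known. They comprise the integrin subunits, laminin chains and type IV collagen chains with numbered symbols, the linkers and proteoglycans Nid1, Nid2, Hspg2 and Agrn, the dystroglycan gene Dag1, and the cytoplasmic integrin partners Ilk, Fermt2, Parva and Parvb. They were read by 67 of the 31042 probe sets tested and made up 41 of 14217 named genes. Itgb3bp met the naming rule by its letters, is counted among the 41, and encodes a centromere protein and not an integrin. Itga2, Itga4, Itga10, Itgb8, Lamb4, Col4a3 and Fermt1 had no probe set with a single annotated symbol and are not analysed here.

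The strain BDEsp-TDECC, called TDECC below, is a clonal strain of cholangiocarcinoma, or bile duct cancer, cells. The strain BDEsp-TDESM, called TDESM, is a clonal cancer-associated fibroblastic strain that the labels describe by overexpression of the myofibroblast actin Acta2. Both came from tumours grown in young adult male Fischer 344 rats after BDEsp cells, cholangiocytes that had transformed spontaneously, were placed in the bile duct. The labels give all samples the same culture, a 3-dimensional co-culture in dilute rat type I collagen gel, and the same TGF-beta inhibitors, SB 431542 and LY2157299, without saying which cultures received them. There were 3 arrays of each strain, and each strain is 1 clone. No source says whether the 3 arrays are separate cultures, so the tests see the spread among arrays alone, and that spread may be technical.

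Basement membranes are thin sheets of matrix under epithelia and around muscle, vessels and nerves. Laminin trimers of an alpha, a beta and a gamma chain and networks of type IV collagen form their layers, which nidogens and the heparan sulphate proteoglycans perlecan and agrin tie together. Integrins, each a pair of an alpha and a beta subunit, hold cells to this matrix: the alpha subunits differ in whether they bind collagens, laminins or ligands carrying the RGD tripeptide. Kindlins, integrin-linked kinase and parvins join the integrin tails to actin, except for the tail of Itgb4, which joins keratin filaments at hemidesmosomes.

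Each value is a log2 expression value made by the authors with RMA, and the correlation over all probe sets between arrays of 1 strain was 0.974 to 0.977 for TDECC and 0.994 to 0.997 for TDESM. The strains carried the markers of their labels: 9 of 9 epithelial markers were higher in TDECC, with a mean level of 12.21 to 12.78 per TDECC array against 4.67 to 4.79 per TDESM array, and 10 of 10 fibroblast markers were lower, at 5.01 to 5.23 against 12.98 to 13.09. Summed levels over 19 leukocyte markers, none of them past the threshold, were 86.2 to 92.0 on TDECC arrays and 85.8 to 89.0 on TDESM arrays. Over 8 endothelial markers, 1 higher and 1 lower in TDECC, the sums were 36.3 to 37.2 on TDECC arrays and 37.9 to 38.0 on TDESM arrays. A level at or below 4.99 in TDECC or 4.88 in TDESM, the upper quartile of the leukocyte markers, is called a low reading; the table holds no detection calls, so no gene could be called absent. Levels of different genes are read by different probes and are not set against each other. A bulk difference cannot tell fewer cells of a type from less RNA per cell.

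Among the 41 genes, TDECC carried more of the laminin-binding subunits Itga3, Itga6 and Itgb4 and of Itgb6. It also carried more of the laminin chains Lama5 and Lamb3 and of agrin. It carried less of most of the other integrin subunits, of Lama4 and Lamc1 and of 3 of 5 type IV collagen chains. Also lower were the kindlin Fermt2, the nidogen Nid2, and Nid1 by 1 of its 2 probe sets. By limma, with Benjamini-Hochberg adjustment over all 31042 probe sets and a threshold of 0.05, 9 of the 67 probe sets were higher and 28 lower in TDECC; over all probe sets 19.0% were higher, 17.9% lower and 36.9% called in either direction. With each gene read by whichever of its probe sets had the greatest mean, 7 of 41 genes (17.1%) were higher and 18 (43.9%) lower, against 20.3% and 21.8% of all 14217 genes, and 61.0% were called against 42.1%. Arrays of both strains did not overlap for 39 of the 67 probe sets, against 48.9% of all probe sets, and for 25 of the 41 genes, the 25 that were called, against 53.6% of all genes. The median log2 difference, TDECC minus TDESM, was -0.41 over the 41 genes and -0.0033 over all genes. A difference of at least 5 on the log2 scale was seen in 7 genes (17.1%), 3 higher and 4 lower, against 2.45% of all genes. An exact two-sided permutation test over 3 against 3 arrays cannot go below p = 0.1, and every one of the 25 called genes reached that value.

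**Figure D1:**
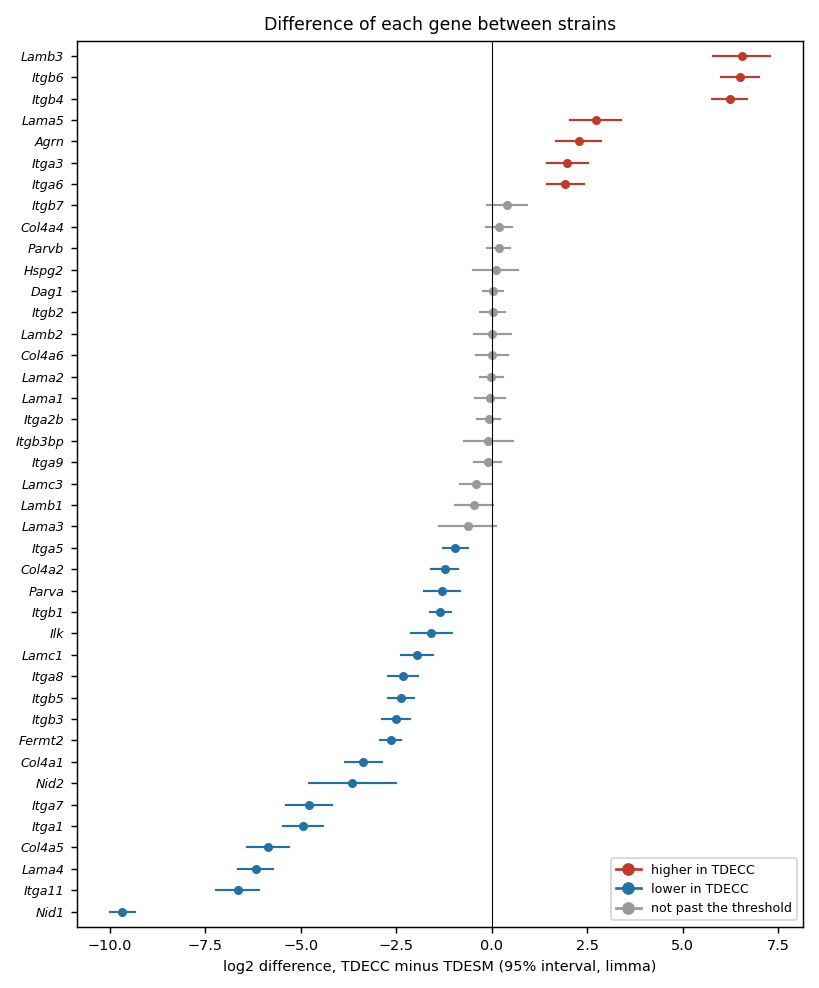
Log2 difference of each of the 41 genes, TDECC minus TDESM, with its 95% interval from limma (horizontal axis, 3 arrays per strain). Red genes were higher in TDECC, blue genes lower and grey genes not past the threshold; Lamb3, Itgb6 and Itgb4 stand above 6, and Nid1 stands lowest at -9.67.

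The deposited values fix each array to nearly the same distribution, so all differences are relative to the median probe set. Of all called probe sets 51.5% were higher in TDECC; this share was 33.1% with arrays centred on housekeeping genes and 94.3% with arrays centred on the spiked-in poly-A controls, which moved the median difference of all probe sets to 1.24. Under the poly-A centring 20 of the 25 called genes kept their call, Col4a2, Ilk, Itgb1 and Parva were no longer past the threshold, and Itga5 changed sign. The other 16 genes were not called on the deposited values, and 15 of them were higher under this centring. That centring adds a shift per array that all probe sets share, while limma takes probe sets as independent. Its p-values are therefore too small, such as a limma adjusted p = 1.44e-121 for Nid1 from 3 against 3 arrays. Calls kept or gained under it are overstated.

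**Figure D2:**
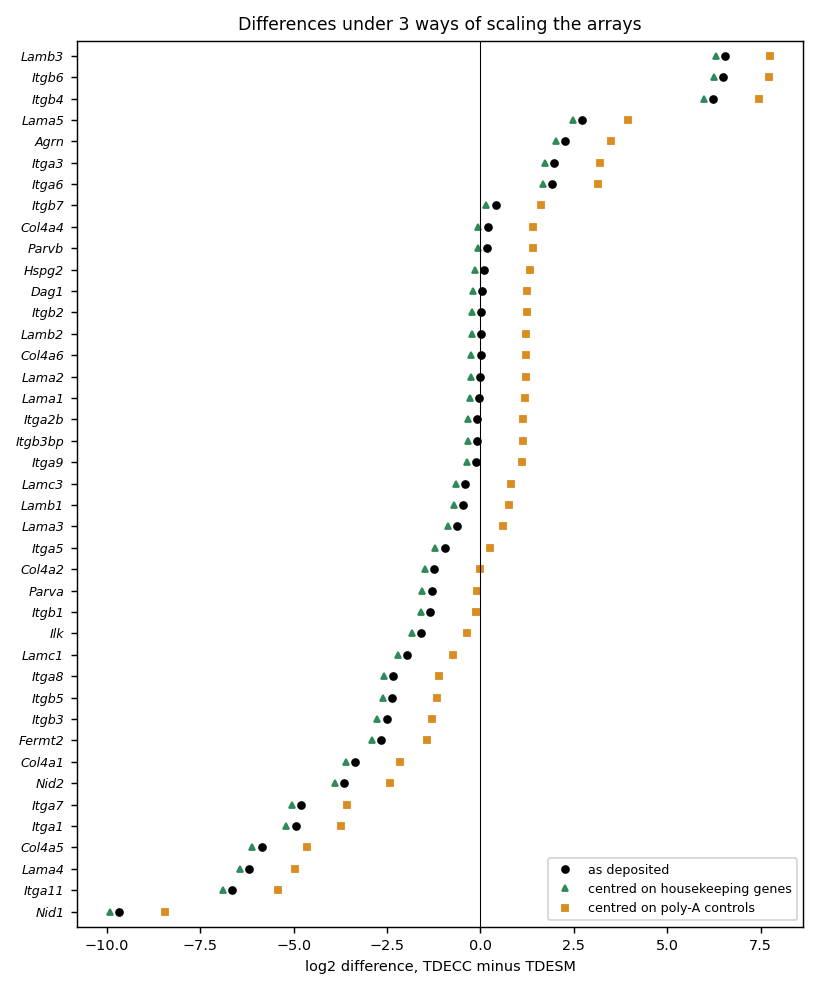
Log2 difference of each gene, TDECC minus TDESM (horizontal axis), on the deposited values (black circles), centred on housekeeping genes (green triangles) and centred on the poly-A controls (orange squares). The poly-A centring shifts every gene to the right by the same amount; Col4a2 lies at -0.02 and Itga5 at 0.26 under it.

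The laminin-binding alpha subunits split, with Itga3 and Itga6 higher and Itga7 lower in TDECC. Itga3, which pairs with Itgb1 and binds laminins of epithelial basement membranes, read 11.46, 10.88 and 10.56 on the TDECC arrays and 8.94, 9.02 and 9.02 on the TDESM arrays, a difference of 1.97 on the log2 scale (SE 0.22, adjusted p = 5.07e-04 by limma). Itga6, the partner of Itgb4 in hemidesmosomes and also of Itgb1, read 10.62, 11.15 and 10.37 in TDECC and 8.82, 8.86 and 8.69 in TDESM, a difference of 1.92 (SE 0.21, limma adjusted p = 3.71e-04). Both subunits were thus well above the low reading in both strains, and every TDECC array was above every TDESM array. Itga7, the laminin-binding subunit known from muscle, read 4.61, 4.78 and 5.56 in TDECC and 9.61, 9.91 and 9.82 in TDESM (log2 difference -4.80, SE 0.25, limma adjusted p = 1.11e-05). Its mean in TDECC was a low reading.

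Both collagen-binding alpha subunits that were read were lower in TDECC, at a low reading there. Itga1, whose pair with Itgb1 binds type IV collagen, read 4.64, 4.76 and 4.02 in TDECC and 9.63, 9.46 and 9.17 in TDESM, a difference of -4.95 on the log2 scale (SE 0.23, adjusted p = 5.37e-06 by limma). Itga11, a receptor of fibrillar collagens on fibroblasts, read 3.92, 4.18 and 3.23 in TDECC and 10.41, 10.47 and 10.41 in TDESM, a difference of -6.65 (SE 0.24, limma adjusted p = 1.70e-06) or 101-fold. The TDESM arrays of Itga11 lay within 0.06 of each other.

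Of the 3 RGD-binding alpha subunits, Itga8 and Itga5 were lower and Itga2b did not pass the threshold. Itga8, a receptor of mesenchymal cells, read 5.11, 4.68 and 4.97 in TDECC and 7.44, 7.29 and 7.04 in TDESM, and its second probe set differed by -2.07 beside -2.34 for the first. Itga5, the fibronectin receptor subunit, read 5.39, 5.30 and 5.58 in TDECC and 6.35, 6.56 and 6.24 in TDESM, a difference of -0.96 on the log2 scale (SE 0.14, adjusted p = 0.00152 by limma), which was 0.26 centred on the poly-A controls. It was the only called gene of the 41 with a difference under 1. Itga2b, the platelet subunit, averaged 6.14 ± 0.17 in TDECC and 6.23 ± 0.05 in TDESM (SD, n = 3 each), and Itga9, which binds tenascin and osteopontin, averaged 4.63 ± 0.16 in TDECC and 4.74 ± 0.20 in TDESM, neither past the threshold.

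Among the 7 beta subunits, Itgb4 and Itgb6 were higher and Itgb1, Itgb3 and Itgb5 lower in TDECC; the call of Itgb1 was lost centred on the poly-A controls. Itgb4, the hemidesmosome subunit, read 10.89, 11.10 and 10.39 in TDECC and 4.44, 4.71 and 4.56 in TDESM, a difference of 6.22 on the log2 scale (SE 0.20, adjusted p = 1.02e-06 by limma) or 74.7-fold. Itgb6, an epithelial subunit whose pair with Itgav binds and activates latent TGF-beta, read 10.18, 9.96 and 9.38 in TDECC and 3.35, 3.43 and 3.23 in TDESM, a difference of 6.50 (SE 0.21, limma adjusted p = 1.13e-06) or 90.7-fold. Both genes were at a low reading on all TDESM arrays, and TDECC replicate 3 was the lowest TDECC array for each.

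Itgb1, the shared partner of most collagen and laminin receptors, read 11.43, 11.37 and 11.33 in TDECC and 12.77, 12.81 and 12.59 in TDESM, a difference of -1.35 on the log2 scale (SE 0.11, adjusted p = 1.23e-04 by limma), or -0.80 by its second probe set. It was read far above the low reading in both strains. Itgb5, a vitronectin receptor subunit, read 8.33, 8.25 and 8.46 in TDECC and 10.52, 10.73 and 10.92 in TDESM, and its 3 probe sets differed by -3.10 to -1.70, all called. Itgb3, the other beta partner of Itgav for vitronectin, read 3.67, 4.12 and 3.83 in TDECC and 6.20, 6.49 and 6.47 in TDESM (difference -2.51, SE 0.16, limma adjusted p = 2.70e-05). The leukocyte subunit Itgb2 averaged 4.91 ± 0.16 in TDECC and 4.88 ± 0.15 in TDESM, and it is itself 1 of the 19 markers that set the low reading. Itgb7, also of leukocytes, averaged 5.72 ± 0.44 in TDECC and 5.32 ± 0.09 in TDESM (SD, n = 3 each); neither passed the threshold.

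**Figure D3:**
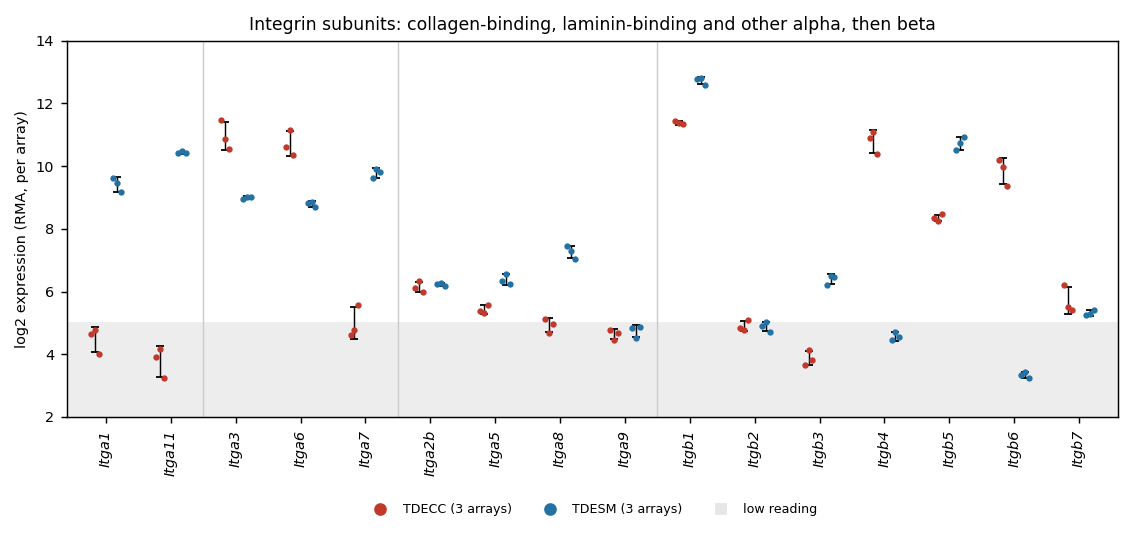
Log2 expression of the integrin subunits on each array (points, TDECC left in red and TDESM right in blue; black bars are the mean ± SD of 3 arrays; grey marks readings up to 4.99). Itgb4 and Itgb6 sit near 10 in TDECC and in the grey band in TDESM, while Itga1 and Itga11 show the reverse.

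Among the 10 laminin chains, TDECC had more Lama5 and Lamb3 and less Lama4 and Lamc1, and the other 6 chains did not pass the threshold. The share called, 40% of the 10 chains, was close to the 42.1% of all genes. Lama5, the main alpha chain of adult epithelial basement membranes, read 11.59, 11.20 and 10.44 in TDECC and 8.21, 8.55 and 8.33 in TDESM, a difference of 2.71 (SE 0.29, limma adjusted p = 3.50e-04). Lama4, the alpha chain known from vessels and mesenchymal cells, read 5.23, 4.98 and 4.52 in TDECC and 11.00, 11.18 and 11.11 in TDESM, a difference of -6.19 (SE 0.19, limma adjusted p = 9.38e-07) or 72.8-fold. The 2 chains moved in opposite directions. Lama3, an alpha chain of epithelial basement membranes, read 9.01, 9.31 and 8.03 in TDECC and 9.30, 9.37 and 9.57 in TDESM, a difference of -0.63 with a 95% interval of -1.38 to 0.12 (limma adjusted p = 0.173). On TDECC replicates 1 and 2 it was close to the TDESM values, and replicate 3 was lower. Lama1 and Lama2, chains of embryonic and muscle basement membranes, were at a low reading in both strains, at 4.81 and 4.26 in TDECC and 4.85 and 4.28 in TDESM.

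Lamb3, a beta chain of epithelial basement membranes, read 11.02, 11.47 and 10.45 in TDECC and 4.73, 3.91 and 4.69 in TDESM, a difference of 6.54 on the log2 scale (SE 0.32, adjusted p = 7.45e-06 by limma) or 92.8-fold. Every TDECC array lay far above the TDESM arrays, 3 low readings. The widely used beta chain Lamb1 read 10.90, 10.58 and 10.07 in TDECC and 10.90, 11.04 and 11.00 in TDESM (difference -0.46, limma adjusted p = 0.137), and passed without TDECC replicate 1 (-0.65, limma adjusted p = 0.0299) and with arrays centred on housekeeping genes. Lamb2 averaged 9.46 ± 0.38 in TDECC and 9.45 ± 0.15 in TDESM (SD, n = 3 each), with a 95% interval of the difference of -0.48 to 0.49. Lamc1, the gamma chain of most laminins, read 9.40, 9.93 and 9.34 in TDECC and 11.44, 11.63 and 11.50 in TDESM, a difference of -1.97 (SE 0.18, limma adjusted p = 1.73e-04). Lamc3 averaged 6.16 ± 0.32 in TDECC and 6.57 ± 0.07 in TDESM (SD, n = 3 each); it did not pass (limma adjusted p = 0.115), but did without TDECC replicate 3 (-0.59, limma adjusted p = 0.00786) and centred on housekeeping genes. Both Lamb1 and Lamc3 turned to positive differences centred on the poly-A controls.

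The chains were set beside the trimers they are known to form. In the trimer of Lama5, Lamb1 and Lamc1, Lama5 was higher by 2.71 and Lamc1 lower by a log2 difference of -1.97. In the trimer of Lama4, Lamb1 and Lamc1, Lama4 and Lamc1 were both lower. Neither trimer had all its chains called in 1 direction.

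The type IV collagen genes lie in head-to-head pairs, in which start sites of both genes face away from each other. Col4a1 and Col4a2, which form the common network of all basement membranes, were both lower in TDECC, but by unequal amounts as read by their probe sets. The starts of this pair lie 77 bases apart in the promoter table of RefSeq (build GRCr8), on opposite strands, and the windows of both genes share 176 bases. The window of Col4a1 (chr16:84885347-84885646, plus strand, 250 bases before to 50 after its start) is shown because it holds the starts of both genes, that of Col4a2 at base 174; capitals mark the GC box, spelled GGGCGG, and the box spelled CCAAT, each on either strand.
Col4a1: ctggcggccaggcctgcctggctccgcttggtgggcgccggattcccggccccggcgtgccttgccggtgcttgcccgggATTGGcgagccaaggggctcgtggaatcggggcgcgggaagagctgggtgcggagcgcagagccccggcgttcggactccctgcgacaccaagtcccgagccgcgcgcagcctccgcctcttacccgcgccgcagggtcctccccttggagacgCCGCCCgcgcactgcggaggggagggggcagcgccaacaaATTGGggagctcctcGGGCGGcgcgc
The window holds 2 GC boxes and 2 CCAAT boxes; 33.1% of all 33469 promoter windows of this length hold a GC box and 37.5% a CCAAT box.

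Col4a1 read 4.41, 5.08 and 5.14 in TDECC and 8.24, 8.33 and 8.16 in TDESM, a difference of -3.37 on the log2 scale (SE 0.21, adjusted p = 2.41e-05 by limma), or -3.97 by its second probe set. Col4a2 read 6.24, 6.26 and 6.36 in TDECC and 7.39, 7.39 and 7.80 in TDESM, a difference of -1.24 (SE 0.15, limma adjusted p = 6.06e-04), which was -0.02 and not called centred on the poly-A controls. The difference of Col4a1 between strains minus that of Col4a2 was -2.13 on the log2 scale (SE 0.28, exact permutation p = 0.1, the smallest possible). Different probe sets read the 2 genes, and Col4a2 had only 1. Probe sets of 1 gene can differ by more, as those of Lama4 did (-6.19 and -0.69). The part of probe response in this gap was not tested. In TDECC Col4a1 was a low reading and Col4a2 was not.

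Col4a5, a chain of the kidney glomerulus and of smooth muscle basement membranes, read 3.59, 3.16 and 3.64 in TDECC and 9.46, 9.62 and 8.89 in TDESM, a difference of -5.86 on the log2 scale (SE 0.23, adjusted p = 2.47e-06 by limma) or 58.1-fold. Its neighbour Col4a6, whose start lies 1415 bases away in the same table, averaged 5.42 ± 0.28 in TDECC and 5.42 ± 0.17 in TDESM (SD, n = 3 each), and its second probe set averaged 3.06 in TDECC and 3.03 in TDESM. Neither probe set of Col4a6 passed the threshold. Col4a4 was at a low reading in both strains, at 4.36 ± 0.20 in TDECC and 4.17 ± 0.14 in TDESM (SD, n = 3 each).

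The nidogens and proteoglycans split as well, with agrin higher in TDECC and Nid2 lower, and Nid1 lower by 1 of its 2 probe sets. Nid1, which bridges laminin and type IV collagen, read 2.80, 2.62 and 2.89 in TDECC and 12.50, 12.58 and 12.25 in TDESM, a difference of -9.67 on the log2 scale (SE 0.14, adjusted p = 1.06e-07 by limma), the largest fall among the 41 genes by their probe sets of greatest mean. Its second probe set read 7.87, 6.82 and 7.36 in TDECC and 7.57, 7.76 and 7.16 in TDESM, which overlap, and differed by -0.15 (limma adjusted p = 0.741). The 2 probe sets of Nid1 thus gave different answers, and which of them reads the gene was not tested. Nid2, its paralog, read 8.56, 6.59 and 6.82 in TDECC and 10.89, 11.09 and 10.94 in TDESM, a difference of -3.65 (SE 0.49, limma adjusted p = 0.00106). TDECC replicate 1 stood above the other two TDECC arrays; without it the difference of Nid2 was -4.27.

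Agrn, agrin, read 10.89, 9.89 and 10.39 in TDECC and 7.99, 8.17 and 8.19 in TDESM, a difference of 2.27 on the log2 scale (SE 0.25, adjusted p = 3.98e-04 by limma). Hspg2, perlecan, read 9.27, 8.39 and 8.40 in TDECC and 8.45, 8.74 and 8.57 in TDESM, a difference of 0.10 with a 95% interval of -0.50 to 0.70 (limma adjusted p = 0.803). Centred on the poly-A controls, Hspg2 was called higher too (1.32), though calls under that centring are overstated. The difference between the 2 proteoglycans was not tested.

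**Figure D4:**
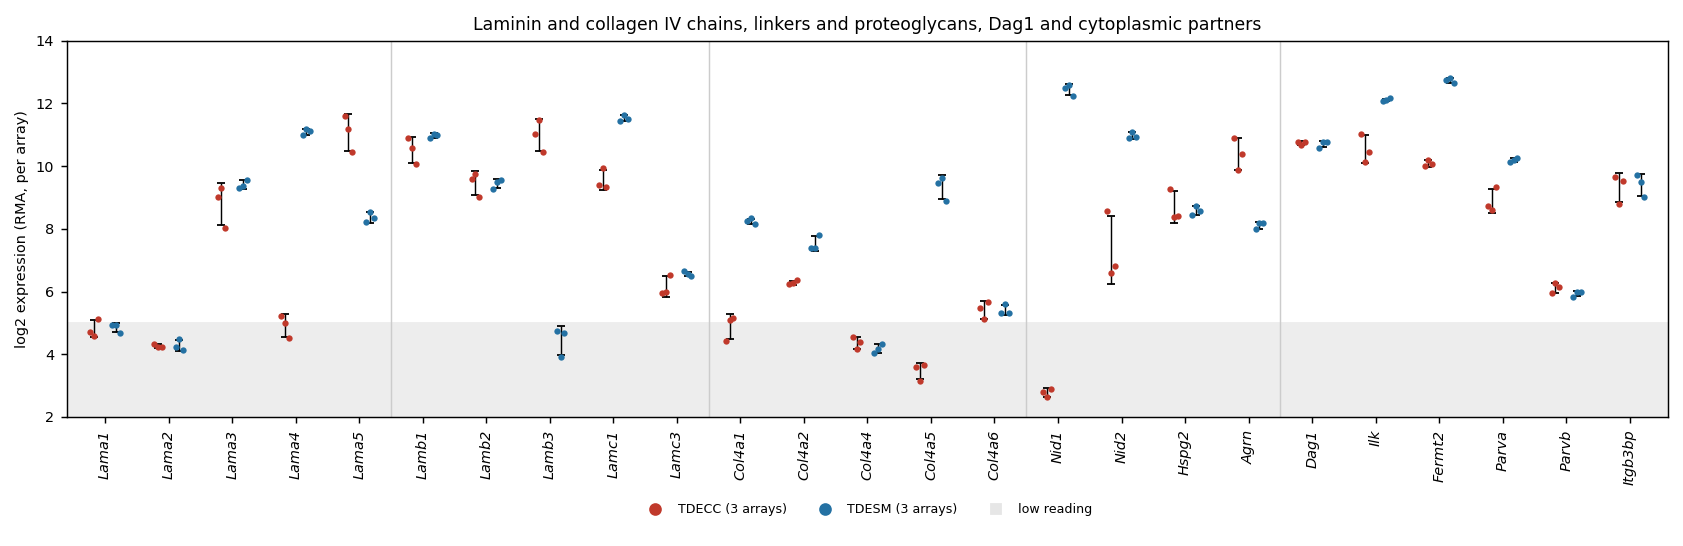
Log2 expression of the laminin and type IV collagen chains, linkers, proteoglycans, Dag1 and cytoplasmic partners on each array (points, TDECC left in red and TDESM right in blue; black bars are the mean ± SD of 3 arrays; grey marks readings up to 4.99). Nid1 and Col4a5 lie in the grey band in TDECC, Lamb3 lies there in TDESM, and Lamb2, Hspg2 and Dag1 overlap.

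Inside the cell, 3 of the 4 actin-linking partners read were lower in TDECC, and Parvb did not pass the threshold. Fermt2, kindlin-2, which activates integrins through their beta tails, read 10.00, 10.19 and 10.06 in TDECC and 12.74, 12.81 and 12.66 in TDESM, a difference of -2.65 on the log2 scale (SE 0.11, adjusted p = 3.93e-06 by limma). Ilk, integrin-linked kinase, read 11.03, 10.14 and 10.44 in TDECC and 12.09, 12.11 and 12.16 in TDESM (difference -1.58, SE 0.22, limma adjusted p = 0.00139). Parva, the parvin that binds Ilk and actin, read 8.73, 8.59 and 9.33 in TDECC and 10.12, 10.20 and 10.26 in TDESM (difference -1.31, SE 0.20, limma adjusted p = 0.00211). All 3 were far above the low reading in both strains; centred on the poly-A controls, Fermt2 alone of them kept its call. Parvb averaged 6.11 ± 0.17 in TDECC and 5.94 ± 0.09 in TDESM (SD, n = 3 each), and none of its 3 probe sets passed the threshold.

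Dag1, whose product dystroglycan binds laminins, agrin and perlecan without an integrin, read 10.78, 10.66 and 10.78 in TDECC and 10.59, 10.76 and 10.77 in TDESM. The difference was 0.03, with a 95% interval of -0.24 to 0.30 (limma adjusted p = 0.855), and none of its 4 probe sets passed. The poly-A centring gave 1.25 and a call, which that centring overstates. Itgb3bp averaged 9.32 ± 0.45 in TDECC and 9.41 ± 0.35 in TDESM (SD, n = 3 each) and did not pass.

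Subunits were then matched to pairs and ligands from textbook knowledge. Itgav, which is not among the 41 genes, was needed as the partner of Itgb3, Itgb5 and Itgb6; it averaged 8.39 in TDECC and 10.61 in TDESM, a difference of -2.22 on the log2 scale (SE 0.17, adjusted p = 7.13e-05 by limma). Of 14 known pairs of a numbered alpha subunit or Itgav whose subunits were both read, 1 had both higher in TDECC and 8 had both lower. In 3 the subunits differed in opposite directions, and 2 had a subunit that was not called. Pairs of other lettered alpha subunits, Itgae with Itgb7 and Itgal, Itgam, Itgax and Itgad with Itgb2, were read but not counted. Neither Itgb7 nor Itgb2 was called, so none of those pairs had both subunits called. The pair with both higher was Itga6 with Itgb4, a receptor for laminins that contain Lama3 or Lama5. The 3 opposed pairs were Itga3 with Itgb1, Itga6 with Itgb1, and Itgav with Itgb6. The pairs share subunits, with Itgb1 in 9 of the 14 whose call was lost centred on the poly-A controls, so they are no independent counts.

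For collagen receptors, receptor and ligand were both lower in TDECC. Itga1 differed by -4.95 beside Col4a1 at -3.37 and Col4a2 at -1.24, and Itga11 by -6.65 beside Col1a2, a chain of type I collagen, at -10.72. For laminin receptors, Itga3, Itga6 and Itgb4 were higher beside Lama5 and Lamb3, but not all chains of their ligands were higher. Lama3 was not called (-0.63), and Lamc1, the gamma chain of the Lama5 trimer given above, was lower (-1.97). Itga7 differed by -4.80 on the log2 scale while Lama1 and Lama2, its classical ligands, were low readings in both strains. For RGD receptors, Itga5 and Itgav were lower beside Fn1, fibronectin, at -9.67. Itgb6 was higher by 6.50 while Fn1 and Tnc, tenascin, among its ligands, differed by -9.67 and -8.71. Itgb3 and Itgb5 were lower, while Vtn, vitronectin, averaged 4.71 in TDECC and 5.02 in TDESM and was not called (-0.31, limma adjusted p = 0.208). Itga9 did not pass, while its ligands Tnc and Spp1, osteopontin, differed by -8.71 and -5.20.

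Lists of genes that work with these members were counted in the same fit, in which 20.3% of all genes were higher, 21.8% lower and 42.1% called, with a median log2 difference of -0.0033. Of 15 integrin ligands outside the basement membrane, 1 was higher in TDECC, Cdh1, E-cadherin (9.29), and 12 were lower, led by Col1a2 and Fn1, with a median log2 difference of -5.20. Centred on the poly-A controls the counts were 3 and 11. Cdh1 is also among the epithelial markers given above, and Col1a1, Col1a2 and Col3a1 are among the fibroblast markers, so the lists overlap. Of 22 adhesion plaque genes, 1 was higher, Pxn, paxillin (1.84), and 11 were lower, led by Lims2, a partner of Ilk (-4.59), and Tns1, tensin (-3.88); their median was -0.89. Under the poly-A centring the plaque counts were 10 higher and 5 lower, so their split by direction depends on the scaling. Without TDECC replicate 1 or 2, a second plaque gene was higher.

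Of 7 hemidesmosome genes, Lad1, ladinin, was higher by 5.30, and Dst, dystonin (-2.48), and Krt5 (-0.60, a low reading in both strains) were lower. The share called, 42.9%, was near that of all genes, and centred on the poly-A controls 5 were higher and 1 lower. That list had 1 lower gene without TDECC replicate 1 or 2 or any single TDESM replicate, and 3 higher without TDECC replicate 3. Col17a1, the hemidesmosome collagen, stood at 3.27 in TDECC and 3.42 in TDESM, a low reading in both, and the plectin gene Plec at 10.41 in TDECC and 9.74 in TDESM, not past the threshold, and these 2 genes were named with their values known. Of 16 other basement membrane genes, 5 were higher and 5 lower. Tinagl1 (3.36) and Bcam, a receptor for Lama5 laminins (3.28), led the higher ones, and Sparc (-7.75) and Pxdn, the peroxidase that cross-links type IV collagen (-7.21), the lower ones, and centred on the poly-A controls 11 were higher.

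Of 11 genes that make or export type IV and other collagens, 0 were higher and 8 lower, led by the chaperone Serpinh1 (-9.27) and the prolyl hydroxylase subunit P4ha3 (-7.39). Of 8 partners or modifiers of dystroglycan, 0 were higher and 5 lower, led by the sarcoglycans Sgce (-4.44) and Sgcb (-4.36), whereas Dag1 itself did not pass. Centred on the poly-A controls these counts were 2 higher and 5 lower for collagen making and 3 and 2 for the dystroglycan partners, and without TDECC replicate 1 one dystroglycan partner was higher. Of the 6 alpha subunits with letter names, 0 were higher and 2 lower, Itgav and Itgae (-2.07), the subunit that binds E-cadherin; the leukocyte subunits Itgal, Itgam, Itgax and Itgad did not pass, and 3 of the 6 were higher centred on the poly-A controls.

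Of the 41 genes, 24 had 1 probe set and 17 had several, of which 12 gave the same call by all their probe sets and 5 did not. No gene had probe sets called in opposite directions. The 5 were Nid1, Itga7, Fermt2, Itga6 and Lama5, in each of which at least 1 probe set was called and at least 1 was not. For Itga7, 2 probe sets differed by -4.80 and -4.35 and the third, at a low reading in both strains, by -0.27. For Itga6 the 4 probe sets differed by 0.05 to 1.92, and for Lama5 the 3 probe sets by 0.46 to 2.71, the smallest each time at a low reading in both strains. Lama4 was called lower by both of its probe sets, at -6.19 and -0.69, the second at a low reading in both strains.

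**Figure D5:**
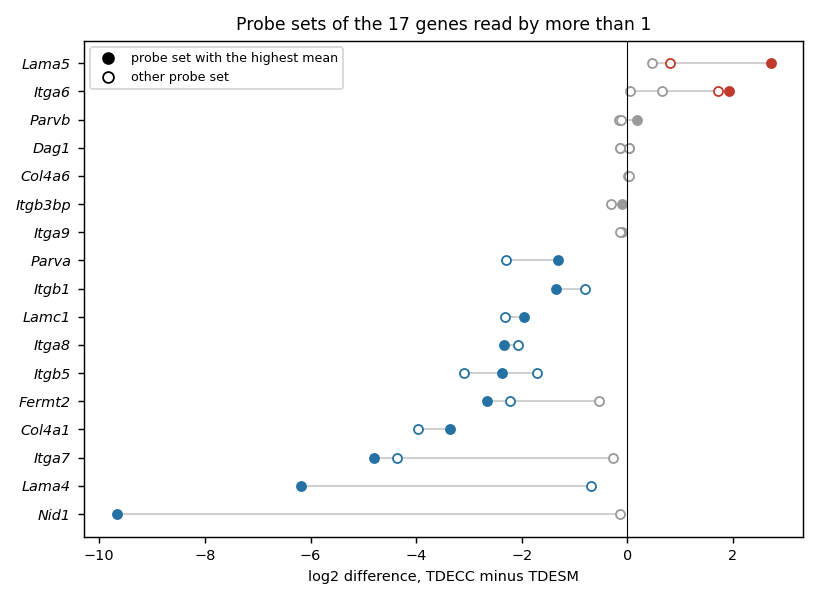
Log2 difference, TDECC minus TDESM, of every probe set of the 17 genes read by more than 1 (horizontal axis; filled points are the probe sets with the highest mean, open points the others; red is higher, blue lower and grey not past the threshold). The probe sets of Nid1 lie at -9.67 and -0.15, the widest gap shown, and no gene has both red and blue points.

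TDECC arrays varied more than TDESM arrays. The SD over 3 arrays had a median of 0.360 in TDECC and 0.139 in TDESM over the 41 genes, and 32 of them had the larger SD in TDECC. Of the 7 genes higher in TDECC, 6 read lowest on TDECC replicate 3 and 1, Agrn, on replicate 2. The mean level of epithelial markers was 12.21, 12.78 and 12.63 on TDECC replicates 1, 2 and 3, so replicate 3 was not the lowest array for that list. The part of any difference between cultures in this spread was not tested.

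Promoter windows were available for 31 of the 41 genes, and those of the genes with the largest differences in each direction are shown. By their probe sets of greatest mean, these genes were at a low reading in 1 strain and above it in the other. The second probe set of Nid1 was at a low reading in neither strain. Lamb3 (chr13:107362303-107362602, plus strand) and Itgb6 (chr3:65530284-65530583, minus strand) were higher in TDECC, and Nid1 (chr17:93069036-93069335, plus strand) and Itga11 (chr8:72041182-72041481, plus strand) were lower, all in GRCr8. Capitals mark matches on either strand to the GC and CCAAT boxes, to the E-box spelled CACCTG, which repressors of epithelial genes bind, to the AP-1 motif spelled TGANTCA and to the TATA box spelled TATAAA.
Lamb3: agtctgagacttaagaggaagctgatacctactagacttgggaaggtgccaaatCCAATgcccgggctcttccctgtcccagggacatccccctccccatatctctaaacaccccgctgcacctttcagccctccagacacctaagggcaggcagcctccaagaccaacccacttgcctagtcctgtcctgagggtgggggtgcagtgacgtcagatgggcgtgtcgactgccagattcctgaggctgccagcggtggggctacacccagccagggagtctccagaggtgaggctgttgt
Itgb6: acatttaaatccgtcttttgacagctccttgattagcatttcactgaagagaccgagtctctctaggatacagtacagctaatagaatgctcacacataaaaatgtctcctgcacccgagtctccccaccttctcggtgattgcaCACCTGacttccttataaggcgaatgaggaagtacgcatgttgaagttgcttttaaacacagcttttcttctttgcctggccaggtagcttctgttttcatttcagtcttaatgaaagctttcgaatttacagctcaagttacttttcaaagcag
Nid1: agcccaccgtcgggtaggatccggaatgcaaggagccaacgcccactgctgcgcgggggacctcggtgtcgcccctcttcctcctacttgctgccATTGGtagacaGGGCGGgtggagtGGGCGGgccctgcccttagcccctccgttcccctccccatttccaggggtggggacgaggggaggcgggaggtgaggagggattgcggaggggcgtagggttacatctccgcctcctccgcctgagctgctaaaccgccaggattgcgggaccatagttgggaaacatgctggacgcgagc
Itga11: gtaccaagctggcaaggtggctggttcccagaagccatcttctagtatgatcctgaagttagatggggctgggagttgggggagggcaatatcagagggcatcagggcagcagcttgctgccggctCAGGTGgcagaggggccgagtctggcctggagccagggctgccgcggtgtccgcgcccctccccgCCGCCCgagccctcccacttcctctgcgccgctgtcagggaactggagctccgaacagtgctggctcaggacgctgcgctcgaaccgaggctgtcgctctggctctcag
The window of Nid1 held 2 GC boxes and 1 CCAAT box, that of Itga11 1 GC box and 1 E-box, that of Itgb6 1 E-box and that of Lamb3 1 CCAAT box.

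Over the 31 windows a GC box was present in 61.3%, against 33.1% of all windows, in 2 of 5 of the higher genes and 9 of 13 of the lower ones. The E-box was present in 3 of 5 higher and 1 of 13 lower genes, against 18.8% of all windows, and the AP-1 motif in 1 of 31, Lama3, with 3 matches, against 7.33%. A CCAAT box was found in 25.8% of the 31 windows, against 37.5% of all, and TATAAA in 6.45%, against 14.2%. The median GC content was 63.0% in the 31 windows and 51.7% in all. These matches describe letters in the windows and show no binding.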

How the data were processed

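Gene expression was measured on Affymetrix rat arrays, 3 of TDECC and 3 of TDESM, with groups and replicate numbers taken from the sample titles. The deposited values are log2 expression per probe set, which the authors computed by RMA, as the submitters' processing notes name it without a version. Per the labels' protocols, biotin-labelled cRNA was made from Trizol-extracted total RNA. RMA as usually run equalises the distributions of arrays, so a difference in total mRNA is removed. The number of arrays limits the precision.

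Of 31099 probe sets 57 controls were left out, and 31042 were fitted with limma 3.58.1 in R 4.3.3 (lmFit, eBayes, two-sided, TDECC minus TDESM, Benjamini-Hochberg adjustment, threshold 0.05). The platform annotation named 1 symbol for 20826, several for 436 and none for 9780; all 41 member symbols were found in the RefSeq table. A gene with several probe sets was read by the one whose mean across all 6 arrays was greatest. The members, gene lists, pairs and motifs were chosen with earlier results of these data known. Every member gene could be named, and of each other list up to 2 called genes each way with the largest difference. Other genes of those lists, such as Vtn and Spp1, were named with their values known. No protein sequences were used here.

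Alternatives were cyclic loess, 3 centrings (17 housekeeping genes, 46 ribosomal protein genes, 24 poly-A control probe sets), omission of the dimmest 33.3%, 1 probe set a gene, the mean or the lowest of a gene's probe sets, trend and robust eBayes, the replicate number as a block, a minimum log2 difference of 1, and each array left out. On simulated data with 31042 probe sets, limma recovered 65% of the probe sets given a log2 change of 1 and 96% of the probe sets given 2. Of its calls, 8% were unchanged probe sets. Only 100 probe sets were given each change, with equal spread in both strains. In the real data 36.9% were called and TDECC varied more over the 41 genes, so these shares need not hold there. Some results are not reported here.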

Additional observations from a re-analysis of the deposited data

How the results depend on the processing

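Of the 25 called genes, 15 kept direction and call under all 17 alternatives, and all 25 did under the 14 that leave out the poly-A centring, the probe set with the lowest mean and the minimum difference. Centred on the poly-A controls, 25251 probe sets were higher and 1520 lower, and 37 member probe sets and 22 member genes were higher. The fixed shift of that centring moves all genes alike, and limma overstates calls under it. The centring turned Itga5 (0.26, not past the threshold), and 15 genes that were not called before passed as higher. Of these, 7 had negative differences on the deposited values, namely Itga2b (1.14), Itga9 (1.11), Itgb3bp (1.13), Lama1 (1.18), Lama2 (1.21), Lamb1 (0.76) and Lamc3 (0.81), and 8 had positive ones, namely Col4a4 (1.41), Col4a6 (1.22), Dag1 (1.25), Hspg2 (1.32), Itgb2 (1.24), Itgb7 (1.62), Lamb2 (1.23) and Parvb (1.40). Centred on housekeeping genes, 8649 probe sets were lower. The 17 housekeeping genes averaged 11.34 in TDECC and 11.10 in TDESM, so this centring shifts every gene down. The median difference of all probe sets was -0.22 under it, and why the housekeeping genes differ was not tested. With a minimum log2 difference of 1, 1561 probe sets were higher and 1768 lower, as the stricter test implies. With the probe set of lowest mean, Fermt2 (-0.55), Itga6 (0.05), Itga7 (-0.27), Lama5 (0.46) and Nid1 (-0.15) were no longer called. With the replicate block, 5390 probe sets were higher and 4954 lower, 7 member genes were higher and 18 lower, and no member gene changed its call; deviations of same-numbered arrays correlated at -0.0894 to -0.0141 over the 3 pairs, so the numbers were not treated as pairs. Leaving out each array in turn gave 4229 to 6404 probe sets higher and 4315 to 5785 lower, 8 to 11 member probe sets higher and 28 to 29 lower, and 7 member genes higher and 18 to 19 lower. Of the 18 genes lower in TDECC, 9 were at a low reading there, and 3 of the 7 higher genes were at one in TDESM, so the sizes of these differences are limited by signal over background.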
